A study of Mus musculus with 4 samples.

Results

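The core myelin membrane protein genes were taken as 9 genes, Mbp, Mag, Mog, Mobp, Cnp, Cldn11, Mal, Opalin and Pllp, chosen by name. All 9 were found among the 23444 gene symbols of the deposited tables, each on 1 row per library, and all 9 passed the filter on low values (1 FPKM or more on average, where FPKM counts sequenced fragments relative to transcript length and to the mapped fragments of the library). Their levels were compared between 2 control and 2 knockout libraries of RNA from mouse oligodendrocytes in primary culture, grown from precursor cells that had been exposed for 1 day to T3, the thyroid hormone that starts their differentiation. The controls carry a label that names lncOL1+/+ and lncOL1+/- together, with no word on which library is which, so a control may hold 1 intact copy of the long noncoding RNA gene lncOL1 or a pair of them. The knockouts are lncOL1-/-, and all 4 libraries share the label of a mixed strain background. The stated purpose is to find the genes that respond to loss of lncOL1. The labels do not say whether the libraries came from separate animals or cultures, so the p-values below measure the spread between these libraries, which may be technical. The sources used here give no age for the animals.

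Myelin is the stack of membrane that an oligodendrocyte wraps around an axon. In compact myelin the cytoplasmic faces of this membrane are held together by basic proteins, of which myelin basic protein (Mbp) is the main one, while other proteins serve the innermost layer facing the axon, the outer surface, the tight junctions between the wraps, or the delivery of lipids and proteins to the sheath. In the oligodendrocyte lineage these genes are switched on as precursors become postmitotic cells. Some of them, such as Cnp and Mbp, are known to start early, whereas Mog is known as a marker of later maturation.

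The targeted gene and the cell type markers were checked first. lncOL1 was at 28.9 and 34.0 FPKM in control and 5.54 and 5.06 FPKM in knockout (SE 0.097 around a log2 fold change of -2.36, limma adjusted p = 0.000389). All 8 oligodendrocyte lineage markers were present, Olig1, Sox10 and Bcas1 among them. Their summed levels were 3629 to 3784 FPKM in control and 3830 to 3874 FPKM in knockout. By limma 0 of 8 were called, beside 0.783% of all tested genes called lower and 0.528% called higher. At an unadjusted p under 0.05, 1 of the 8 was lower and 2 were higher, against 6.58% and 7.13% of all tested genes. The authors' deposited table called 2 lower and 1 higher at q under 0.05, beside 4.04% and 1.74% of its genes with a valid test. Of 6 Schwann cell markers, which tell peripheral from central myelin-forming cells, 4 were under 1 FPKM in every library, Prx, Egr2 and Pmp2 among them. The other two were low, with Drp2 at 0.928 and 0.795 FPKM in control and 1.14 and 1.03 FPKM in knockout, and Pou3f1 at 2.07 and 1.95 FPKM in control and 2.60 and 3.01 FPKM in knockout (log2 fold change 0.33, limma adjusted p = 0.198). Summed FPKM was between 373484 and 383128 per library. The files give no read counts, and the spacing of the lowest values gave estimated relative depths of 0.94 to 1.19 against control replicate 1.

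The 9 genes fell into widely separated levels, which FPKM allows to be compared because it is scaled to transcript length. Mbp and Cnp stood at the top, with means over the 4 libraries of 2089.6 and 1823 FPKM, the 6th and 9th highest of the 11361 genes tested. Cldn11 and Mag followed with 721 and 425 FPKM and Pllp with 100.1 FPKM. Mog, Opalin and Mobp were at 23.8, 15.3 and 8.26 FPKM, and Mal was lowest at 2.19 FPKM, where 11.2% of the tested genes were lower still. The ranges over the 4 libraries did not overlap between any of the 9 genes other than Mbp and Cnp. The order of these 2 differed between the groups. Mbp was above Cnp in both controls and below it in both knockouts.

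**Figure D1:**
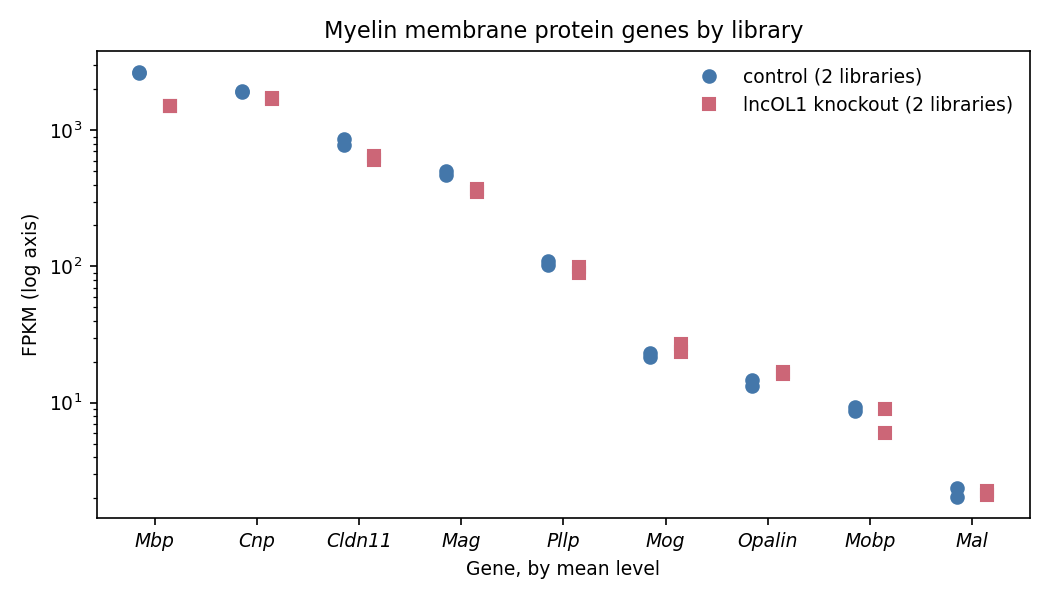
FPKM (log axis) of the 9 genes in each library, with circles for the 2 control and squares for the 2 knockout libraries. Mbp is separated by group, with 2655 and 2683 FPKM in control and 1501 and 1520.4 FPKM in knockout, while the levels of Mal and Mobp overlap.

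Across the 9 genes, Mbp fell in the knockout and the other 8 did not pass the test. With limma on log2(FPKM + 1), 1 of 9 was lower and 0 of 9 were higher at an adjusted p under 0.05, read beside 0.783% of all 11361 tested genes called lower and 0.528% called higher. At an unadjusted p under 0.05, 4 were lower (Mbp, Mag, Cldn11 and Cnp) and 1 was higher (Opalin), against 6.58% and 7.13% of all tested genes. In 5 of 9 genes both knockout libraries lay below both controls, and in 2 of 9 (Mog and Opalin) both lay above, while 20.7% and 22.6% of all tested genes were apart in these ways. The median log2 fold change was -0.17 over the 9 genes and 0.0046 over all genes tested. The 9 genes were chosen with results of these data known, so the counts describe them and are not an independent test. In RNA from a whole culture, fewer cells that express a gene and less RNA per cell cannot be told apart.

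**Figure D2:**
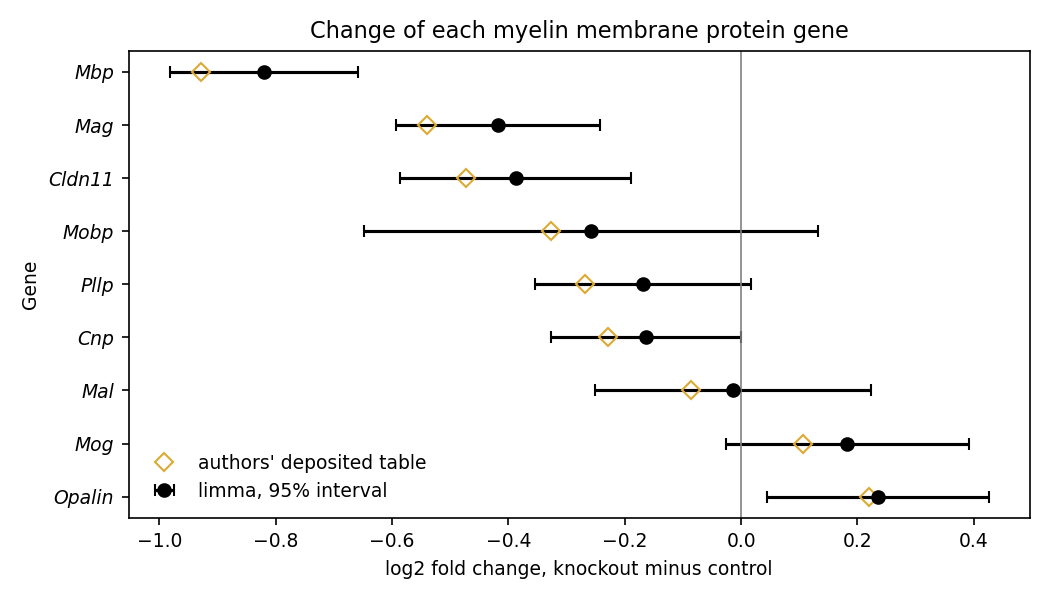
Log2 fold change (knockout minus control) of the 9 genes, ordered from lowest to highest. Filled circles with bars are limma values with 95% intervals, and open diamonds are the values of the authors' deposited table. Mbp lies lowest at -0.82, and Mog and Opalin lie above 0 at 0.18 and 0.23.

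Mbp and Mobp encode the small basic proteins of compact myelin. Mbp (chromosome 18, positions 82475123 to 82585637 in mm10, plus strand, 16 transcripts in GENCODE) was at 2683 and 2655 FPKM in the control libraries and at 1501 and 1520.4 FPKM in the knockout libraries. The control libraries were within 0.02 of each other on the log2 scale, as were the knockout libraries, and the groups were far apart. The mean fell by 43.4%, with 2669 ± 19.7 FPKM in control and 1511 ± 13.9 FPKM in knockout (SD, n = 2 each), which is a log2 fold change of -0.82 (SE 0.068, 95% interval -0.98 to -0.66, limma adjusted p = 0.00504). Among the 664 tested genes of at least 100 FPKM, 1.51% were called lower. The call was lost with any 1 library left out, although the value hardly moved: it was -0.81 and -0.83 when control replicate 1 or 2 was dropped (limma adjusted p = 0.0653 and 0.0608) and -0.81 and -0.83 when knockout replicate 1 or 2 was dropped (limma adjusted p = 0.104 and 0.139), each from a fit with 1 sample in a group. It was also lost with no filter on low values (limma adjusted p = 0.140). The Mbp locus also gives rise to the longer Golli transcripts, and a gene-level FPKM does not tell them from the transcripts of the classical myelin basic proteins.

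Mobp (chromosome 9, 120149742 to 120176091, plus strand), whose product also binds the cytoplasmic side of compact myelin, did not follow Mbp in these libraries. It was at 8.70 and 9.33 FPKM in control and at 5.96 and 9.05 FPKM in knockout. Knockout replicate 1 stood alone below the other 3 libraries, and knockout replicate 2 lay between the controls. The log2 fold change was -0.26 (SE 0.163, 95% interval -0.65 to 0.13, limma adjusted p = 0.573), and it was 0.01 without knockout replicate 1 and -0.52 without knockout replicate 2.

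Mag and Cnp encode proteins of noncompact myelin. Mag (chromosome 7, 30899183 to 30914832, minus strand) makes the sialic acid-binding adhesion molecule of the membrane that faces the axon. It was at 501 and 472 FPKM in control and at 354 and 374 FPKM in knockout, so that the highest knockout value lay below the lowest control value. Its mean was 487 ± 21.1 FPKM in control and 364 ± 14.1 FPKM in knockout (SD, n = 2 each), which is a log2 fold change of -0.42 (SE 0.073, 95% interval -0.59 to -0.24, limma adjusted p = 0.0579). This missed the threshold, and Mag passed it under 4 other settings in which the log2 fold change was -0.42 to -0.44, namely a pseudocount of 0.1, quantile normalization, scaling to TPM (FPKM rescaled to 1 common total per library) and scaling without the 9 genes (limma adjusted p = 0.0416, 0.0254, 0.0376 and 0.0357). Mag also passed with the replicate numbers fitted as a block (limma adjusted p = 0.0125), though the labels do not say that these numbers pair libraries. It did not pass with no filter on low values or without a trend in the variance (limma adjusted p = 0.174 and 0.0756). With 1 library left out it did not pass either, with values from -0.46 to -0.37 (limma adjusted p 0.229 to 0.298).

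Cnp (chromosome 11, 100574939 to 100581739, plus strand) makes the phosphodiesterase that keeps cytoplasmic channels open within the sheath. It was at 1944 and 1909.8 FPKM in control and at 1699.8 and 1739.5 FPKM in knockout. The groups did not overlap, but the difference was small, with a log2 fold change of -0.16 (SE 0.068, 95% interval -0.33 to -0.00083, limma adjusted p = 0.361).

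Cldn11 (chromosome 3, 31149920 to 31164326, plus strand) encodes the claudin that forms the tight junction strands between myelin layers. It was at 776 and 858 FPKM in control and at 601 and 647 FPKM in knockout. Both knockout libraries were below both controls, and the mean was 817 ± 57.9 FPKM in control and 624 ± 33.0 FPKM in knockout (SD, n = 2 each), which is a log2 fold change of -0.39 (SE 0.083, 95% interval -0.59 to -0.19, limma adjusted p = 0.0977). The values of Mag and Cldn11 were of like size, and the ratio of Mag to Cldn11 was 0.646 and 0.550 in the controls and 0.589 and 0.577 in the knockouts, which overlap.

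Mog and Opalin, which encode proteins of the outer and paranodal membrane, were not lower in the knockout. Mog (chromosome 17, 37010740 to 37023398, minus strand) makes an immunoglobulin-like protein of the outermost myelin surface. It was at 21.5 and 23.0 FPKM in control and at 27.1 and 23.7 FPKM in knockout, where both libraries lay above the controls, knockout replicate 2 by little. The log2 fold change was 0.18 (SE 0.087, 95% interval -0.03 to 0.39, limma adjusted p = 0.429). Opalin (chromosome 19, 41063420 to 41077113, minus strand) makes a sialylated transmembrane protein found in central but not peripheral myelin. It was at 13.2 and 14.8 FPKM in control and at 16.3 and 16.9 FPKM in knockout, again with both knockout libraries above both controls (log2 fold change 0.23, SE 0.080, 95% interval 0.04 to 0.43, limma adjusted p = 0.262). The intervals of both genes lie wholly above the interval of Mbp, as do those of every other member, Mag and Cldn11 included.

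Mal and Pllp encode tetraspan proteolipids of the MARVEL family, which take part in raft formation and membrane sorting. Pllp (plasmolipin, chromosome 8, 94674895 to 94696242, minus strand) was at 103.0 and 109.0 FPKM in control and at 89.9 and 98.6 FPKM in knockout. The groups were apart by less than the gap within the knockout, and the log2 fold change was -0.17 (SE 0.078, 95% interval -0.35 to 0.02, limma adjusted p = 0.413). An antisense gene, Gm45767, overlaps Pllp in GENCODE. Genes on the opposite strand also overlap Mbp (Rpl21-ps8), Mog (Gm22388) and lncOL1 (the protein-coding Pcdh17). The sources used here do not say whether strand was used in counting, so reads of such pairs may not be told apart. Mal (chromosome 2, 127633226 to 127656695, minus strand) was at 2.04 and 2.38 FPKM in control and at 2.11 and 2.24 FPKM in knockout, where both knockout values lay between the controls (log2 fold change -0.01, SE 0.099, 95% interval -0.25 to 0.22, limma adjusted p = 0.976). At this low level the pseudocount of 1 shrinks any fold change, and with a pseudocount of 0.1 the value was -0.02.

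The authors' deposited Cuffdiff table, which pools each group, gave values in the same directions for all 9 genes and more calls among them. At q under 0.05, the authors' deposited table had 4 of the 9 genes lower and 0 higher, beside 4.04% and 1.74% of its 12518 genes with a valid test. In that authors' deposited table the log2 fold changes were -0.93 for Mbp, -0.54 for Mag, -0.47 for Cldn11 and -0.27 for Pllp, with q listed as 0 for Mbp and Mag, 4.53e-11 for Cldn11 and 0.00433 for Pllp. For Cnp the authors' deposited table gave a log2 fold change of -0.23 (q = 0.203), for Mog 0.11 (q = 0.796) and for Opalin 0.22 (q = 0.633). The 2 sources are not interchangeable. The group value of the authors' deposited table for Cldn11 was 698 FPKM in control, below both of its control libraries, and such values lay outside the range of their 2 libraries in 72.3% of 11154 genes in control and 76.3% in knockout.

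Because the genes did not shift by the same factor, the makeup of their summed RNA differed between the groups. The 9 genes together held 1.58% and 1.62% of all summed FPKM in control and 1.13% and 1.18% in knockout. Mbp accounted for 44.3% and 43.9% of the 9-gene sum in control and 34.9% and 34.3% in knockout. Cnp accounted for 32.1% and 31.6% in the controls and 39.6% and 39.3% in the knockouts, and so replaced Mbp as the gene with the most FPKM of the 9. The share of Mag was 8.29% and 7.79% in the controls and 8.24% and 8.43% in the knockouts, so that Mag kept its place in the sum. Without Mbp, the other 8 genes summed to 3370 and 3398 FPKM in control and to 2796 and 2911 FPKM in knockout.

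**Figure D3:**
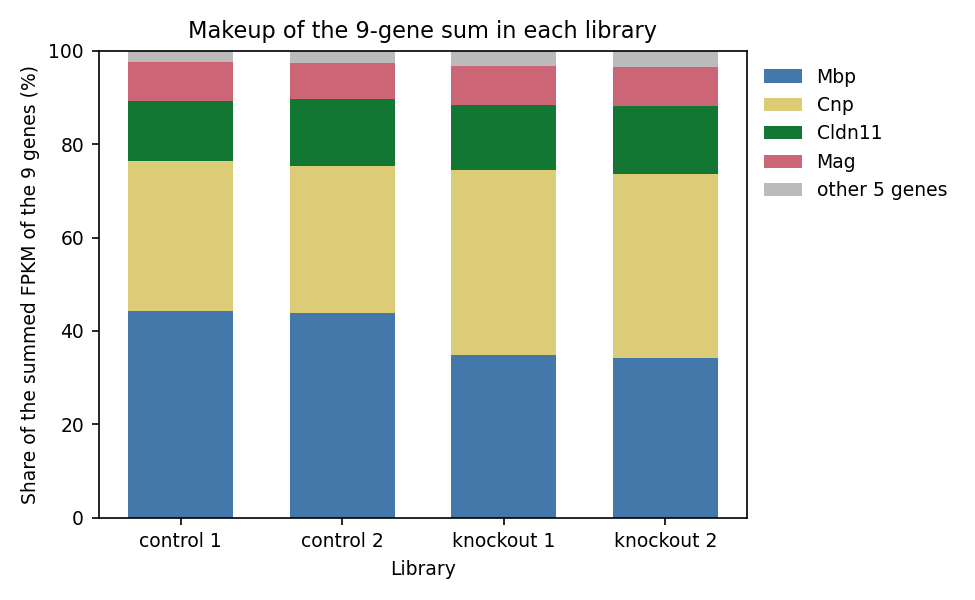
Share of the summed FPKM of the 9 genes (percent, from 0 to 100) held by Mbp, Cnp, Cldn11, Mag and the other 5 genes in each of the 4 libraries. Mbp takes 43.9% and 44.3% in the controls and 34.3% and 34.9% in the knockouts, and Cnp takes the larger share in the knockouts.

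Ratios taken within a library do not depend on how that library was scaled. The ratio of Mbp to Cnp was 1.38 and 1.39 in the controls and 0.883 and 0.874 in the knockouts. The ratio of Mbp to Mog was 125 and 116 in the controls and 55.4 and 64.1 in the knockouts, and that of Mbp to Mag was 5.35 and 5.63 in the controls and 4.24 and 4.07 in the knockouts. In all 8 ratios of Mbp to another of the 9 genes, both knockout libraries were below both controls. These 8 ratios share Mbp, so they restate its fall and are not separate observations. Each of these 8 gave a two-sided exact permutation p = 0.333 (0.333 after Benjamini-Hochberg adjustment over the 8), which is the smallest value that 2 against 2 libraries allow, so no ratio could pass. Mag too was lower against Mog, with 23.4 and 20.5 in the controls and 13.1 and 15.8 in the knockouts, whereas Opalin against Mog was 0.614 and 0.642 in the controls and 0.601 and 0.713 in the knockouts, which overlap.

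The upstream sequences of 4 of these genes are shown because the genes went apart, with Mag and Cldn11 lower and Mog and Opalin higher in both knockout libraries, though none passed the test. Each is the 250 bases before the most upstream RefSeq start site (GRCm38.p6, the assembly of mm10), read 5′ to 3′ on the gene's strand, at chr7:30914923-30915172 (minus strand) for Mag, chr3:31149670-31149919 (plus strand) for Cldn11, chr17:37023399-37023648 (minus strand) for Mog and chr19:41077114-41077363 (minus strand) for Opalin. Capitals mark matches, on either strand, to CTGGNAC, the pattern searched for Myrf, the activator of myelin genes, or to ACAAAG, a motif of Sox factors. N allows any base, so a match to CTGGNAC may not fit the motif known for Myrf.
Mag: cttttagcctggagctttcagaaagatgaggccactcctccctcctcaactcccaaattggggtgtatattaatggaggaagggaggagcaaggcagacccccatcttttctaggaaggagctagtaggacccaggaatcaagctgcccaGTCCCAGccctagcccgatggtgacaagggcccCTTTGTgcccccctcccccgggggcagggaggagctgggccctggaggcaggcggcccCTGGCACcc
Cldn11: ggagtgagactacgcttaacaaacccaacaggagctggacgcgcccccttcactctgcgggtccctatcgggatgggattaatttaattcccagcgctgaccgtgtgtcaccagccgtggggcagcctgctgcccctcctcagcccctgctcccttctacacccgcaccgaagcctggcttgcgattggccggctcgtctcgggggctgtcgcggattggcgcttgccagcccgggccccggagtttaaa
Mog: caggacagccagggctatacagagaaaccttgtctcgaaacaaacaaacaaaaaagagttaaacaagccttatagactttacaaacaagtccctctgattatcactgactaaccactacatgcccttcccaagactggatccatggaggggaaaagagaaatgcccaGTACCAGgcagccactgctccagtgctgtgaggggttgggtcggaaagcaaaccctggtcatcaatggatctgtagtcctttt
Opalin: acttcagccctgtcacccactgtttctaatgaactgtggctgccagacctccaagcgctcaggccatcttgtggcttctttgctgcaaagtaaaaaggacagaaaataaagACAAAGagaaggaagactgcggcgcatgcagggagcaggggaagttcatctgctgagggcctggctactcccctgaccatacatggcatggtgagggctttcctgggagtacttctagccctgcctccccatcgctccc
Promoter windows of 300 bases, from 250 before to 50 after the start site, were matched for 8 of the 9 genes, with no entry for Mbp. CTGGNAC was in 4 of the 8 (Mag, Mog, Cnp and Opalin, in Opalin after the start site), against 19.3% of all 32851 windows in the RefSeq table. ACAAAG was in 4 of the 8 (Mag, Mobp, Cnp and Opalin), against 18.7%, with 6 matches in Mobp alone. The E-box CAGCTG, which reads the same on both strands, was in 1 of the 8 (Opalin, across the start site), against 16.3%. Cldn11, Mal and Pllp had no match to any of the 3 motifs. Both CTGGNAC and ACAAAG matched in Mag, Cnp and Opalin, and the part of these motifs in the changes was not tested. A match describes letters only and is not a site of binding.

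Among the 44 other myelin genes of the list, 37 were tested, 5 fell and 1 rose (limma), beside 0.783% of all tested genes called lower and 0.528% called higher. Their median log2 fold change was -0.12, with 26 values below 0 and 11 above. The list includes genes whose results in these data were known when it was written, Adamts4, S1pr5 and Gpr37 among them, so its count is not independent evidence of a direction. Tppp, a microtubule-polymerizing protein of myelinating cells, was at 93.9 and 94.2 FPKM in control and at 50.1 and 45.7 FPKM in knockout, and fell by 0.96 on the log2 scale (SE 0.075, limma adjusted p = 0.00433). S1pr5, Adamts4 and Gpr37 also fell, with log2 fold changes of -0.95, -0.67 and -0.50. Sept8, a septin of the myelin cytoskeleton, rose from 49.7 and 47.2 FPKM in control to 65.2 and 64.8 FPKM in knockout (log2 fold change 0.42, limma adjusted p = 0.0480). The calls of these 5 genes were lost with no filter on low values (limma adjusted p 0.0600 to 0.103). They were also lost with any 1 library left out for S1pr5, Adamts4, Gpr37 and Sept8 (adjusted p 0.0608 to 0.285) and without knockout replicate 2 for Tppp (adjusted p = 0.0700).

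Abundant genes among these other myelin genes did not pass the test. Sirt2, Bcas1 and Nfasc differed by -0.12, 0.06 and -0.38 on the log2 scale (limma adjusted p = 0.516, 0.877 and 0.0561). Sirt2 was at 0 after quantile normalization. Nfasc passed the threshold under the same 4 settings as Mag (limma adjusted p 0.0360 to 0.0416) and, like Mag, with the replicate block (limma adjusted p = 0.0130).

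**Figure D4:**
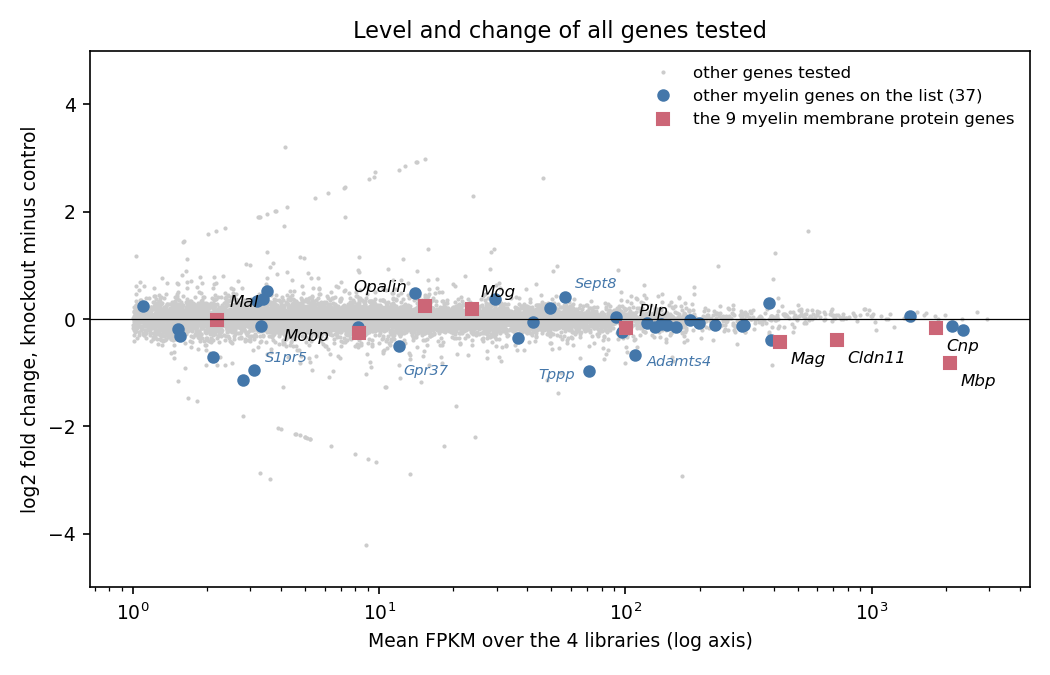
Log2 fold change (knockout minus control) against mean FPKM (log axis) for all 11361 genes tested, with the 9 genes as squares and the 37 other myelin genes as circles. Mbp lies at -0.82 at the right edge, and Cnp lies at -0.16 at a similar level.

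Genes known to act on the transcription of myelin genes did not pass the limma test. Of 23 tested members of that list 0 were called lower and 0 higher by limma, with 1 lower and 4 higher at an unadjusted p under 0.05 (6.58% and 7.13% of all tested genes). The authors' deposited table called 2 lower and 2 higher, beside 4.04% and 1.74% of its genes with a valid test. Myrf was at 249 and 261 FPKM in control and at 229 and 246 FPKM in knockout (log2 fold change -0.10, limma adjusted p = 0.623). It was among the 2 called lower in the authors' deposited table (log2 fold change -0.21, q = 0.0281). Olig1, Sox10 and Olig2 had log2 fold changes of 0.08, 0.02 (-0.02 after quantile normalization) and 0.20. Mbp RNA is known to be carried into the processes of oligodendrocytes and translated there, and of 15 genes listed for its transport, stability and translation 1 fell and 0 rose (limma), beside 0.783% and 0.528% of all tested genes. That gene was Tppp, which is on both lists. Fyn, the kinase that relays axonal contact to Mbp translation, and Qk, which encodes the RNA-binding Quaking proteins, had log2 fold changes of 0.05 (-0.02 after quantile normalization) and -0.08 (limma adjusted p = 0.836 and 0.816). Of 35 genes listed as family relatives of the 9, such as other claudins, Siglecs and MARVEL proteins, 21 were under 1 FPKM in every library. Of 14 tested, 0 were called lower and 0 higher by limma. At an unadjusted p under 0.05, 2 were lower and 3 higher, against 6.58% and 7.13% of all tested genes. Rtn4 and Omg, which are on that list but in none of these families, differed by -0.24 and 0.21 on the log2 scale (limma adjusted p = 0.205 and 0.338).

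The genes nearest to Mbp in pattern were sought among the 6056 tested genes that averaged 10 FPKM or more, by Euclidean distance between log2(FPKM + 1) values over the 4 libraries, each centred on its own mean. They were Tspan4, a tetraspanin, Efnb3, an ephrin ligand, and Fgfr2, a fibroblast growth factor receptor, at distances of 0.052, 0.068 and 0.076 on the log2 scale. Tspan4 was at 196 and 200.1 FPKM in control and at 115.0 and 115.2 FPKM in knockout. Fgfr2 was at 20.9 and 20.8 FPKM in control and at 10.7 and 11.7 FPKM in knockout. Mobp and Mal averaged less than 10 FPKM and could not be among the nearest 3, and none of the others of the 9 genes was. Within the 9, Cnp and Pllp were nearest to each other at 0.102, followed by Mag and Cldn11 at 0.169.

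Markers of other cell types were set beside these results. All 7 tested microglia and macrophage genes of 14 listed were higher in both knockout libraries than in both controls, beside 22.6% of all tested genes. Of these 7, 3 were called higher, beside 0.528% of all tested genes. They were Fcrls, Tyrobp and Laptm5 (log2 fold changes 1.14, 1.01 and 1.03, limma adjusted p = 0.00491, 0.0119 and 0.0101). Their calls were lost with no filter on low values (limma adjusted p 0.0600 to 0.0855) and without either knockout replicate (adjusted p 0.0642 to 0.167), for Tyrobp and Laptm5 also without control replicate 1 (adjusted p = 0.0683 and 0.0926) and for Laptm5 without control replicate 2 (adjusted p = 0.0722). The list summed to 18.3 and 21.0 FPKM in control and to 34.8 and 40.3 FPKM in knockout, with 5 of 14 under 1 FPKM in every library and none at 0 in all 4. Of 9 astrocyte genes 0 were called by limma, with sums of 586 and 555 FPKM in control and 548 and 527 FPKM in knockout. At an unadjusted p under 0.05, 3 of them were lower and 1 higher, against 6.58% and 7.13% of all tested genes. The authors' deposited table called 4 of these 9 lower and 0 higher, beside 4.04% and 1.74% of its genes with a valid test. The 8 precursor genes summed to 983 and 985 FPKM in control and to 1050.1 and 1037 FPKM in knockout, with 0 called. At an unadjusted p under 0.05, 0 of them were lower and 2 higher, against 6.58% and 7.13% of all tested genes. The authors' deposited table called 0 of these 8 lower and 1 higher, beside 4.04% and 1.74% of its genes with a valid test. Of 12 genes listed for newly formed oligodendrocytes, the stage between precursor and myelinating cell, 3 fell and 1 rose (limma), beside 0.783% and 0.528% of all tested genes, and their sums were 3594 and 3440 FPKM in control and 3527 and 3320 FPKM in knockout. At an unadjusted p under 0.05, 6 of the 12 were lower and 2 higher, against 6.58% and 7.13% of all tested genes. This list was written with results of these data known. Tmem2, a cell surface hyaluronidase, was at 16.2 and 14.7 FPKM in control and at 5.999 and 5.690 FPKM in knockout (log2 fold change -1.26, limma adjusted p = 0.00352). Rras2, a small GTPase, and Tmem163, a zinc transporter, fell by 0.73 and 0.42 on the log2 scale (limma adjusted p = 0.00874 and 0.0425), while Neu4, a sialidase, rose by 0.63 (limma adjusted p = 0.0128). The calls of these 4 genes were lost with no filter on low values (limma adjusted p 0.0600 to 0.111). They were also lost with any 1 library left out for Rras2, Tmem163 and Neu4 (limma adjusted p 0.0763 to 0.261), without knockout replicate 2 for Tmem2 (limma adjusted p = 0.0698), and for Tmem163 after quantile normalization or without a trend (limma adjusted p = 0.0535 and 0.0653). Neuronal genes summed to between 41.6 and 45.1 FPKM in all 4 libraries, and fibroblast and vascular genes to between 0.885 and 2.11 FPKM. The part of these other cells, or of the stage of the oligodendrocytes, in the levels of the myelin genes was not tested.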

How the data were processed

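TruSeq RNA libraries were made from total RNA, per the labels' protocols, and the tools were TopHat, Cufflinks, Cuffdiff and CASAVA with build mm10, per the submitters' processing notes, which give no versions or roles. The annotation is not stated in these sources. The FPKM values were computed by the authors and deposited as 1 table per sample. The authors' deposited table holds 1 FPKM per group, a log2 fold change, p-values and q-values. It stores septin symbols as dates, so septins were not matched in it.

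Rows of 1 symbol were summed, and 9 symbols not marked OK in all samples were dropped. The 11361 genes averaging 1 FPKM or more were fitted as log2(FPKM + 1) with limma 3.58.1 in R 4.3.3 (lmFit, eBayes with trend, 2 residual and 4.6 prior degrees of freedom), without covariates, with Benjamini-Hochberg adjustment over all genes tested and a threshold of 0.05. Fold changes are on that scale and understate those of low genes. On simulated data over 11361 genes the fit recovered 58.2%, 100% and 98.5% of the genes given log2 changes of 0.5, 1 and 2, and 9 of 180 calls were false. The depth in reads is unknown, so precision rests on 2 libraries per group. Members and lists were chosen with earlier results of these data known. Named genes were all members, lncOL1, up to 4 of the most abundant genes and the called genes of each list, and the 3 genes nearest to each called member. A few named genes are not reported here, although the counts include them. Marker lists are given by counts and sums, with a few of their genes named. Groups came from the sample titles. Alternatives covered the pseudocount, the filter, scaling, the trend, the replicate block and each library left out.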

Additional observations from a re-analysis of the deposited data

How the results depend on the processing

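Of 7 alternatives with all 4 libraries, Mbp lost its call with no filter on low values, where 17397 genes were tested (log2 fold change -0.82, limma adjusted p = 0.140), and kept it in the other 6. Leaving out 1 library gave -0.83 to -0.81 for Mbp, past the threshold in none of 4 fits. Mag passed with a pseudocount of 0.1, quantile normalization, TPM scaling and scaling without the 9 genes (-0.42, -0.44, -0.42 and -0.43). The count of the 9 genes called lower was 2 under each of these 4, 0 with no filter and 0 with each library left out. Mog, Opalin, Cnp and Pllp kept their direction in all alternatives run. Leaving out 1 library, Mobp ranged from -0.52 to 0.0063 (the latter without knockout replicate 1), its share of the 9-gene sum from -0.010 to 0.055 percentage points (knockout replicates 2 and 1) and Mal from -0.090 to 0.063 (0.063 and 0.017 without control replicate 2 and knockout replicate 1), so their directions turned. In the same way Bcas1 ranged from -0.032 to 0.14, Olig1 from -0.035 to 0.20, Sox10 from -0.071 to 0.12, Fyn from -0.0058 to 0.12 and Qk from -0.21 to 0.053. Quantile normalization gave -0.023 for Sox10 and -0.017 for Fyn.

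Over all genes tested, 3 were lower and 1 higher with no filter, and 5 to 26 lower and 11 to 16 higher with a library left out. Of the other myelin genes, 0 were lower and 0 higher with no filter, 0 to 2 lower and 0 higher with a library left out, and 2 were higher with a pseudocount of 0.1 and with TPM scaling and 0 with no trend. Of the Mbp RNA transport genes 0 were lower with no filter, and 0 to 1 with a library left out. A fit with 1 sample in a group assumes that it varies like the other group.

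The labels number the replicates 1 and 2 in both groups without saying that a number marks a shared source, and the deviations of same-numbered libraries correlated at -0.05 across genes. With the replicate block 183 genes were lower and 158 higher, and 3 of the 9 were lower (Mbp, Mag at -0.42 and Cldn11 at -0.39). Of the other myelin genes 7 were lower and 4 higher. In the same fit 2 transcription regulators were higher, and 1 gene listed as a family relative was lower.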
